A study of Mus musculus with 8 samples.

Results

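Cytosolic ribosomal protein genes encode the protein part of the large and small subunits that translate nuclear messages. They were taken from the count table as the protein-coding genes with symbols of the Rpl or Rps number series, with Rplp0, Rplp1, Rplp2, Rpsa and Fau added and Rps6 kinase genes left out. This gave 85 of 43629 genes: 46 of the large subunit, 32 of the small subunit and 7 paralogs of them (Rpl3l, Rpl7l1, Rpl10l, Rpl22l1, Rpl36al, Rpl39l and Rps27l). Another 5 genes with matching symbols are not protein-coding in the GENCODE M21 annotation and were left out, among them Rps4l. The study sequenced polyA RNA of 4 tumor libraries and 4 small intestine libraries from mice. All 8 come from animals labelled as APC mutant on a C57B6/129 strain background with no treatment, so the intestine with which tumor is compared also comes from mutant animals. The allele, the age and the gut region are not given in the labels, and nothing in them says that the libraries of a group are separate animals. P-values therefore measure only the spread between these libraries, which may be technical.

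Ribosomal protein messages are among the most abundant in a dividing cell, and the proteins are needed in matched amounts because each ribosome holds about a single copy of most of them. Most of these messages begin with a C followed by a run of pyrimidines, the terminal oligopyrimidine (TOP) motif, through which mTOR signalling and Larp1 set how well they are translated. Apc is a negative regulator of Wnt signalling, and Myc, a Wnt target in the gut, drives ribosome production. Some ribosomal protein genes are also in wide use as reference genes for expression in tissue.

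The TOP run can be read in the genome around the annotated start of several genes on which the results turn. Each line below gives 30 bases of the sense strand, 20 before and 10 after the start in RefSeq on GRCm38.p6, with the longest run of C and T that opens with a C in capitals. Rpl15 and Rps6 rose in tumor, Rps27 and Fau had lower values there under composition scaling, Rps18 is a common reference gene, and Rps28 rose but has no such run in its window.
Rpl15: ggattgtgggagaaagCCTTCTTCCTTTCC
Rps6: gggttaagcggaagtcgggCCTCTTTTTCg
Rps18: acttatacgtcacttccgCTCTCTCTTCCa
Rps27: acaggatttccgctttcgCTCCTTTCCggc
Fau: ggacgtgcgcgcccccaCTTCTTCCTCTTT
Rps28: tcctgggtaccgcgtgcggtctcgcgagag
The windows lie at chr14:18270977-18271006 on the minus strand for Rpl15, chr4:86857358-86857387 on the minus strand for Rps6 and chr17:33955656-33955685 on the minus strand for Rps18. Those of Rps27 and Rps28 lie at chr3:90213639-90213668 and chr17:33824553-33824582, both on the minus strand, and that of Fau at chr19:6057927-6057956 on the plus strand.

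RefSeq windows of 300 bases, 250 before and 50 after the start, matched 62 members and 11525 tested protein-coding genes in all. A C followed by at least 7 pyrimidines, on the sense strand from 20 before to 49 after the start, was present in 49 of the 62 members (79%) and in 23.3% of all genes. On the other strand of the same stretch the run was present in 8 members (12.9%) and in 26.7% of all genes. CCGGAAG, searched on both strands of the whole window, was present in 25 members (40.3%) and 17.8% of all genes, and CTCTTT, on both strands from 20 before the start to the end of the window, in 21 members (33.9%) and 4.77%. CTCTTT can lie inside a pyrimidine run and so overlaps the run counted above. These 4 searches were picked from 23 after their shares were seen, and the members' share was the higher in 22 of the 23. The run definition given is the one of 3 with the largest share in members: within 5 bases of the start, the 2 shorter definitions were present in 48.4% and 38.7% of members against 23.5% and 8.44% of all genes. The median log2 fold change of tumor over small intestine, with the TMM scaling described next, was 0.37 over the 49 members with the run and 0.46 over the 13 without, a difference that was not tested.

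Depth and marker genes set the frame for the comparison. Tumor libraries held 53856561 to 67371180 gene-assigned counts, and those of small intestine 62347648 to 84433335. Their TMM factors were 1.33 to 1.38 and 0.6868 to 0.7881. TMM is a scaling that sets the typical gene equal between libraries and so allows for a few genes that take up much of a library. Marker genes of several cell types differed between the tissues under TMM: 10 of 10 enterocyte markers and 10 of 10 lymphocyte markers (8 of 10 under library totals) were lower in tumor, while 7 of 8 fibroblast, 7 of 8 macrophage and 4 of 6 smooth muscle markers were higher, as were 8 of 8 Wnt targets and 8 of 8 cell cycle genes. Summed TMM-scaled CPM (counts scaled to library size) of the enterocyte markers were 759 to 1114 in tumor and 57743 to 72298 in small intestine. The same sums were 38.9 to 68 and 146 to 581 for lymphocytes, 1224 to 1934 and 34.8 to 77.2 for fibroblasts, 212 to 338 and 84.4 to 142 for macrophages, and 154 to 188 and 31.9 to 96.8 for smooth muscle. No marker of these 5 cell types was at 0 counts in any library. Their part in the results below was not tested, and in such bulk samples fewer cells of a type and less RNA per cell cannot be told apart.

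Ribosomal protein genes took up a larger share of the counted reads in tumor, while their TMM-scaled sums overlapped between the tissues. Their share of all gene-assigned counts was 4.98%, 4.98%, 5.14% and 5.55% in tumor replicates 1 to 4, a mean of 5.16% ± 0.269 (SD, n = 4). In small intestine replicates 1 to 4 it was 2.76%, 1.89%, 3.28% and 1.77%, a mean of 2.43% ± 0.721 (SD, n = 4). The groups did not overlap, and the small intestine libraries spread far more widely than the tumor libraries, with replicates 1 and 3 high and replicates 2 and 4 low. Without the 50 most abundant genes outside the family, the share was 5.58% ± 0.279 in tumor and 3.07% ± 0.913 in small intestine. Scaled by library totals, the typical gene was higher in tumor too. The median log2 fold change on that scale was 0.93 over all tested genes and 1.18 over tested members. A larger share in tumor is thus not particular to the family. Large subunit genes held a larger part of the family in tumor. They had 1.35 ± 0.0116 times the counts of small subunit genes in tumor and 1.25 ± 0.0176 times in small intestine. No tumor library fell among the small intestine libraries. The small subunit gene Fau, at a mean of 1.11% of member counts in tumor and 2.55% in small intestine, enters this ratio. The ratio without Fau is not given, so a shift of the whole subunit is not shown. After TMM scaling the summed CPM of the members was 36996, 37051, 38710 and 40234 in tumor replicates 1 to 4 and 35062, 26028, 42946 and 25756 in small intestine replicates 1 to 4. On this scale small intestine replicate 3 was above every tumor library, and the means were 38248 ± 1544 and 32448 ± 8227 (SD, n = 4). These values are descriptions and carry no test.

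**Figure D1:**
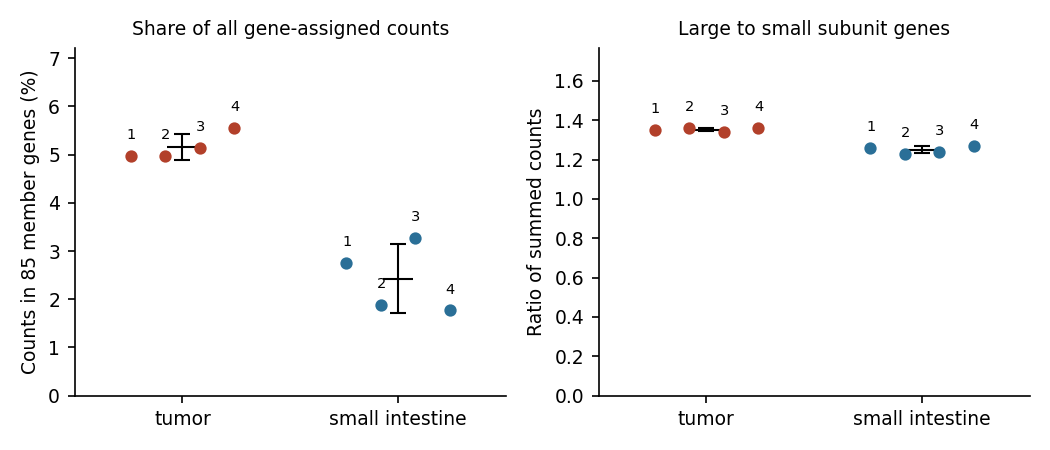
Left, percent of each library's gene-assigned counts in the 85 ribosomal protein genes. Right, ratio of counts summed over large subunit genes to counts summed over small subunit genes. Points are libraries numbered by replicate, horizontal marks are means and bars are SD over 4 libraries. The 4 tumor libraries lie at 4.98% to 5.55% and the 4 small intestine libraries at 1.77% to 3.28%.

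How many single genes rose depended on what the libraries were scaled to. Of the 85 members, 82 had enough counts to be tested, and all values here are log2 fold changes of tumor over small intestine from the quasi-likelihood test of edgeR, adjusted by Benjamini-Hochberg over 17029 genes, called at an adjusted p under 0.05. With TMM scaling, 34 members were higher, 3 were lower (Fau, Rps27 and Rps27l) and 45 were not called. The 34 are 41.5% of the tested members, close to the 38.9% of all tested genes that were called higher. The 3 are 3.66%, against 35.4% of all tested genes called lower. The median over members was 0.32, from -0.93 to 1.01, beside 0.07 over all genes.

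Scaled by library totals alone, 79 members were higher and the remaining 3 (Fau, Rpl24 and Rps15) were not called. This is 96.3% of the tested members, where 62% of all tested genes were called higher and 17.6% lower. The median over members was 1.18 and that over all genes 0.93, so the change of scaling shifted the median gene by 0.863. The sign of 16 members differed between the scalings, and Rps27 and Rps27l were called in opposite directions. FPKM values, which the authors scaled to library size and gene length, gave 78 of 81 members higher on the log2(FPKM + 1) scale by limma, with a median of 1.21 (0.76 over all genes). In that comparison 64.6% of all genes were called higher and 18.1% lower.

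The 2 scalings also differed in how cleanly the libraries separated. Under TMM the tumor and small intestine values did not overlap in 31 members (37.8%), of which 27 were higher and 4 lower in tumor, whereas 70.5% of all tested genes had groups that did not overlap. Under library totals the groups did not overlap in 79 members (96.3%), against 75.9% of all tested genes. Large subunit genes had 20 of 46 higher under TMM (median 0.37) and 45 of 46 under library totals (median 1.23). Small subunit genes had 12 of 32 higher and 2 lower under TMM (median 0.30), and 30 of 32 higher under library totals (median 1.15).

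**Figure D2:**
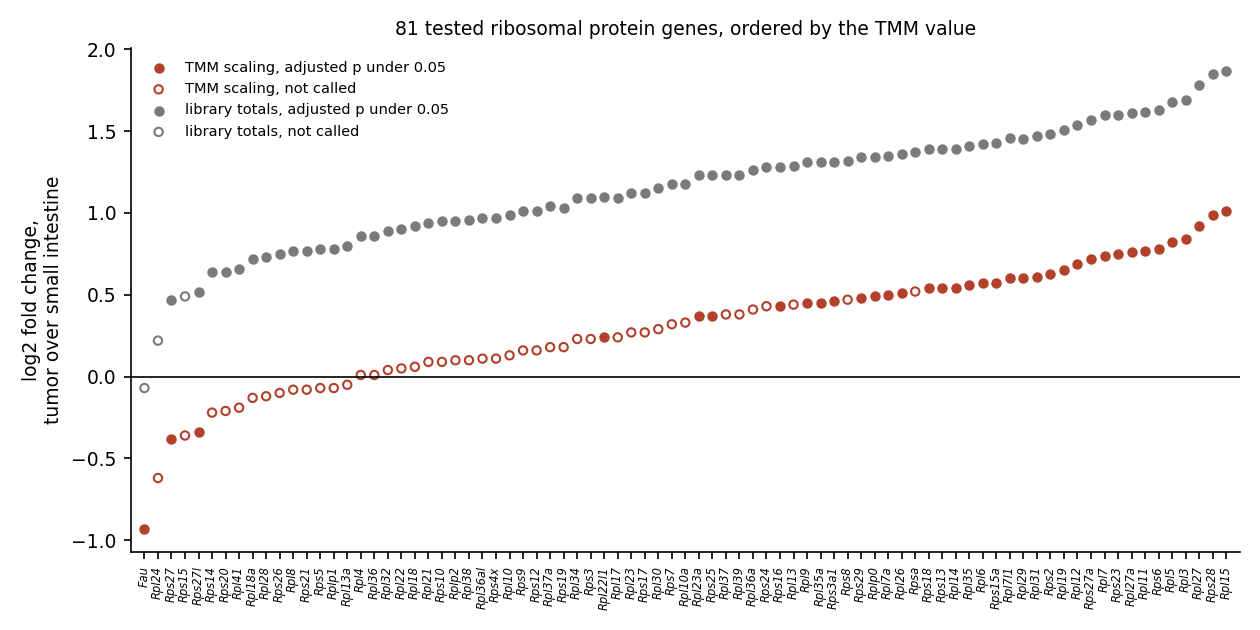
Log2 fold change of tumor over small intestine (vertical axis) for 81 of the 82 tested ribosomal protein genes (horizontal axis, ordered by the TMM value), with TMM scaling in red and library totals in gray. Filled points have an adjusted p under 0.05 and open points do not. The gray series lies above the red one by a nearly constant amount, and Fau is the lowest gene in both.

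The spread of the small intestine libraries was shared by the whole family. In 82 of 82 tested members replicate 3 of the small intestine had the highest TMM-scaled value of its group, and the median over members of its ratio to the other replicates' mean was 1.48. Replicates 1 and 3 were the 2 highest in 80 of the 82. For replicates 2 and 4 this median was 0.75. Over members, the median coefficient of variation was 26% in small intestine and 4.2% in tumor. Over the 9646 genes with a mean of at least 10 CPM it was 15.2% and 7.75%. A high replicate 3 was not particular to the family. It was also the highest small intestine library in summed CPM of initiation factors (7064, others 6287 to 6861) and cell cycle genes (392, others 239 to 336). It was not the highest for enterocyte or lymphocyte markers. The share of all tested genes that were highest in replicate 3 is not given. Without small intestine replicate 3, 54 members were called higher and 3 lower, while 38.8% of all genes tested there were called higher and 34.7% lower. Leaving out small intestine replicate 2 gave 5 lower members and leaving out replicate 4 gave 6. Each of the 4 tumor libraries left out in turn gave 26 to 28 higher and 2 lower members. Apart from the omission of small intestine replicate 3, the shares of all genes called in these omissions are not given. Whether the family or all genes moved in them was not tested.

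Members moved together across libraries within a tissue. The median correlation of a member's log2 CPM with the mean of the members was 0.986 after centring each tissue, and 77 of the 82 members were above 0.9. This is a description over 8 libraries that share their scaling, and the members' mean deviated most in small intestine replicate 3 (0.43 on the log2 scale), beside -0.30 and -0.27 in replicates 4 and 2. Among 9426 protein-coding genes outside the family with a mean of at least 10 CPM, the 5 most like the members' mean by this measure were Rack1 (r = 0.998), Mbd3 (r = 0.997), Eif3i (r = 0.996), Polr2e (r = 0.994) and Abhd14a (r = 0.990). All 5 were above the members' median, and the share of all genes above 0.9 is not given. Moving together is thus not shown to be particular to the family. Rack1 encodes a scaffold protein of the small subunit that the naming rule does not take in. It had 1009 ± 30.9 CPM in tumor against 1021 ± 243 CPM in small intestine, giving a log2 fold change of -0.02 under TMM (edgeR adjusted p = 0.927) and 0.84 under library totals (edgeR adjusted p = 0.00274).

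The 6 members with the largest rise under TMM were Rpl15, Rps28, Rpl27, Rpl3, Rpl5 and Rps6. Rpl15, a core protein of the large subunit, stood at 265, 256, 263 and 272 CPM in tumor replicates 1 to 4 and at 132, 117, 154 and 121 CPM in small intestine replicates 1 to 4. Every tumor library was above every small intestine library, and the log2 fold change was 1.01 ± 0.11 (SE; edgeR adjusted p = 1.92e-05) under TMM and 1.87 under library totals. Rps28, a small subunit protein near the mRNA exit, stood at 195, 191, 197 and 211 CPM in tumor against 104, 82, 139 and 74 CPM in small intestine. Its groups did not overlap, and its log2 fold change was 0.99 ± 0.18 (SE; edgeR adjusted p = 0.000835).

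Rpl27 encodes a large subunit protein and had 164, 168, 172 and 168 CPM in tumor against 91, 79.9, 112 and 71.8 CPM in small intestine. Its log2 fold change was 0.92 ± 0.13 (SE; edgeR adjusted p = 0.000177). Rpl3, whose protein reaches towards the peptidyl transferase center, averaged 852 ± 46.8 CPM in tumor against 475 ± 140 CPM in small intestine (SD, n = 4) and gave a log2 fold change of 0.84 ± 0.19 (SE; edgeR adjusted p = 0.00327). Rps6, the ribosomal substrate of the S6 kinases, had 321, 327, 325 and 349 CPM in tumor against 197, 167, 254 and 153 CPM in small intestine. It rose by 0.78 ± 0.16 (SE; edgeR adjusted p = 0.00136). For these members too no small intestine library reached a tumor library, and all 6 were called with each library left out in turn.

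Rpl5 and Rpl11 form a particle with the 5S RNA that, when not built into ribosomes, binds and inhibits Mdm2, the ubiquitin ligase of p53. Rpl5 had 360, 357, 372 and 383 CPM in tumor against 219, 161, 283 and 168 CPM in small intestine, and Rpl11 had 412, 406, 414 and 436 CPM in tumor against 260, 193, 332 and 195 CPM in small intestine. In both the groups did not overlap. The log2 fold changes were 0.82 ± 0.17 for Rpl5 (SE; edgeR adjusted p = 0.00195) and 0.77 ± 0.17 for Rpl11 (SE; edgeR adjusted p = 0.00298). Of the exon bases of Rpl5, 26.7% are shared with a snoRNA gene on the same strand and with Fam69a on the opposite one, and the strand setting of the counting is not given in the sources used here.

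Fau fell under TMM by more than any other member. The gene encodes Rps30 as a fusion behind a ubiquitin-like protein, which is cut off after translation. It stood at 404, 423, 438 and 438 CPM in tumor replicates 1 to 4 and at 873, 679, 940 and 747 CPM in small intestine replicates 1 to 4, groups that did not overlap. The log2 fold change was -0.93 ± 0.13 (SE; edgeR adjusted p = 0.000124) under TMM. Under library totals it was -0.07 (edgeR adjusted p = 0.659), and by FPKM -0.04 (limma adjusted p = 0.82), so the fall was seen relative to the typical gene of a library and not relative to the library total. Rps27a, the other fusion in the family, carries ubiquitin itself and moved the other way: it had 378, 384, 401 and 416 CPM in tumor against 248, 193, 333 and 184 CPM in small intestine, giving a log2 fold change of 0.72 ± 0.18 (SE; edgeR adjusted p = 0.00541).

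Rps27 and its paralog Rps27l are small subunit zinc-finger proteins, and Rps27l is a known target of p53. Under TMM Rps27 stood at 256, 262, 279 and 268 CPM in tumor against 394, 301, 400 and 295 CPM in small intestine, giving a log2 fold change of -0.38 ± 0.13 (SE; edgeR adjusted p = 0.0199). Rps27l stood at 83, 83.1, 89.1 and 81.6 CPM in tumor against 93.5, 108, 121 and 105 CPM in small intestine, giving a log2 fold change of -0.34 ± 0.09 (SE; edgeR adjusted p = 0.00782). For both, all tumor libraries were below all small intestine libraries on this scale, and under library totals both were higher in tumor, by 0.47 (edgeR adjusted p = 0.0157) and 0.52 (edgeR adjusted p = 0.000561). The TMM call of Rps27 was lost with any of the 4 tumor libraries left out, where edgeR adjusted p reached 0.0789.

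Among called members whose groups did not overlap, the next lowest log2 fold changes after these 3 were positive. They were those of Rps16 at 0.43 (edgeR adjusted p = 0.0296), Rpl9 at 0.45 (edgeR adjusted p = 0.0228) and Rpl35a at 0.45 (edgeR adjusted p = 0.0155). Rps16 kept its call only without small intestine replicate 1 or 3, and its adjusted p reached 0.0793 over the 8 omissions. Rpl9 lost its call without small intestine replicate 2 or 4, where it reached 0.0643. Rpl35a kept its call in all 8 omissions.

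**Figure D3:**
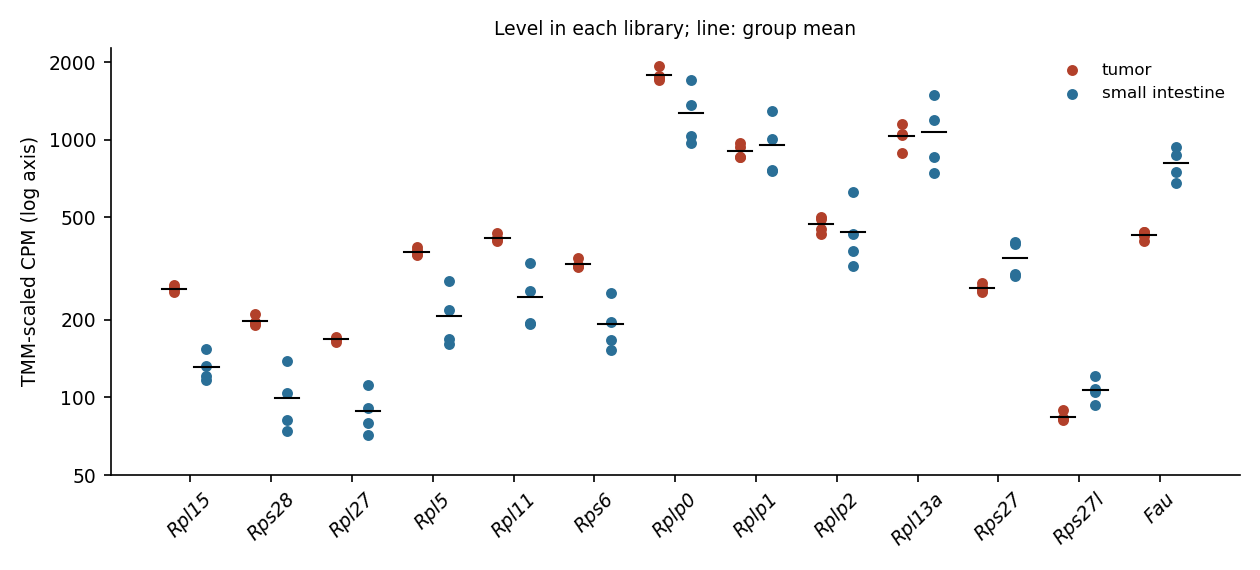
TMM-scaled CPM (log axis) of 13 ribosomal protein genes in each library, tumor in red and small intestine in blue, with a line at each group's mean. Tumor points lie above all small intestine points in Rpl15, Rps28, Rpl27, Rpl5, Rpl11 and Rps6, and below them in Rps27, Rps27l and Fau. The groups overlap in Rplp1, Rplp2 and Rpl13a, and in Rplp0, where 1 tumor library lies below the highest small intestine library.

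The stalk of the large subunit, where elongation factors dock, is built from Rplp0 with pairs of Rplp1 and Rplp2. Rplp0 had 1731, 1699, 1763 and 1928 CPM in tumor against 1365, 973, 1705 and 1030 CPM in small intestine. Its log2 fold change was 0.49 ± 0.19 (SE; edgeR adjusted p = 0.0425) and the groups overlapped through small intestine replicate 3. That call held in only 1 of the 8 omissions, that of small intestine replicate 3 (edgeR adjusted p = 0.00622), and reached 0.109 over the others. Rplp1, at 906 ± 59.7 CPM in tumor against 954 ± 254 CPM in small intestine, had a log2 fold change of -0.07 ± 0.18 (SE; edgeR adjusted p = 0.729), which was 0.78 under library totals. Rplp2, at 469 ± 33.1 and 438 ± 133 CPM, had 0.10 ± 0.19 (SE; edgeR adjusted p = 0.66). The stalk genes thus did not all pass the test under TMM, while under library totals all 3 were higher, as were 62% of all tested genes.

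A hand-picked list held 16 members with variants known in Diamond-Blackfan anemia, an inherited failure of red cell production. It need not be complete, and none of the members called lower under TMM (Fau, Rps27 and Rps27l) is on it. Of the 16, 9 were higher under TMM, where 38.9% of all tested genes were. The other 7 were not called, and the median over the 16 was 0.47. Under library totals all 16 were higher, beside 62% of all tested genes. Besides Rpl15, Rps28, Rpl27, Rpl5, Rpl11 and Rpl35a, the 9 were Rps29, Rpl26 and Rpl35, at 0.48, 0.51 and 0.56. Rps19, the most often affected of them, had 392 ± 22.6 CPM in tumor against 345 ± 124 CPM in small intestine, giving a log2 fold change of 0.18 (edgeR adjusted p = 0.491).

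Of the 5 members that often serve as reference genes for quantitative PCR, 3 were called higher and 2 were not called under TMM. All 5 were higher under library totals. Among all tested genes 38.9% were higher under TMM and 62% under library totals. Rpl19 rose by 0.65 ± 0.15 (SE; edgeR adjusted p = 0.00283), from 277, 215, 324 and 210 CPM in small intestine to 400, 398, 400 and 415 CPM in tumor. Rps18 had 0.54 ± 0.20 (SE; edgeR adjusted p = 0.0344), a call that held in only 2 of 8 omissions, those of small intestine replicates 1 and 3, and reached 0.0882 over the others. Rplp0, given above, was called too. Rpl32 and Rpl13a were not called, at 0.04 ± 0.20 and -0.05 ± 0.22 (SE; edgeR adjusted p = 0.853 and 0.838), and under library totals they were 0.89 and 0.80. Rpl13a varied widely in both tissues, with 884, 1043, 1048 and 1153 CPM in tumor against 1187, 858, 1489 and 745 CPM in small intestine. Of 6 reference genes outside the family, Ppia and Gapdh were higher (1.73 and 0.89), Actb and B2m lower (-2.14 and -1.41) and Hprt and Tbp not called (-0.10 and 0.04) under TMM. The log2 difference of Actb was also negative under library totals (-1.27), where B2m had -0.53 (edgeR adjusted p = 0.221).

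Within the family, composition could be compared without any scaling between libraries, by giving each gene as a percent of all member counts. With the members' total as library size, edgeR called 12 members higher and 9 lower, while 28.8% of all tested genes were called higher and 37.9% lower. Members higher on this scale were Rps28, Rpl15, Rpl27, Rpl3, Rpl5, Rpl11, Rps6, Rpl27a, Rps23, Rps27a, Rpl7 and Rpl12. Those lower included Fau, Rpl24, Rps27, Rps27l, Rps15, Rps14, Rps20 and Rpl41. For Rpl24 this rests on only 461 to 919 counts per library. By FPKM the log2 fold change of Rpl24 was 1.32, beside a median of 1.21 over members, as described below. The groups did not overlap in 61 members, 38 higher and 23 lower in tumor (74.4% of tested members, where 63% of all genes did not overlap). Dividing by the members' own total removes what the members share, so closer libraries are built into this scale. The median coefficient of variation over members was 2.32% in tumor and 5.61% in small intestine. Small intestine replicate 3 was the highest of the 4 in 22 members instead of 82. For genes outside the family the same division brings in the spread of the members' total. The shares of all genes on this scale are therefore not a like background.

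Fau held 1.09%, 1.14%, 1.13% and 1.09% of member counts in tumor and 2.49%, 2.61%, 2.19% and 2.90% in small intestine and had a log2 fold change of -1.19 (edgeR adjusted p = 0.000188). Rpl15 held 0.716%, 0.691%, 0.68% and 0.676% in tumor and 0.376%, 0.449%, 0.359% and 0.469% in small intestine and had a log2 fold change of 0.74 (edgeR adjusted p = 0.00327). In neither gene did a tumor library come near the small intestine range.

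Per length, the members ranged widely in level. Mean FPKM had a median of 758 in tumor and 332 in small intestine over the members with a value over 1. Rplp1 was the highest in both tissues, at 3184 ± 229 and 1798 ± 542 FPKM (SD, n = 4), and Rpl7l1 the lowest, at 43.9 ± 2.24 and 15.6 ± 2.23 FPKM. Across 81 members the mean log2 FPKM and the TMM log2 fold change had a Pearson r of -0.43 and a Spearman rho of -0.47, so the more abundant members tended to have smaller values. Exon length and log2 fold change had an r of 0.35. These are correlations across genes of the same libraries, which are not independent replicates.

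Of the 7 paralogs, 3 were at or near 0 counts. Rpl10l had 0 counts in all 8 libraries, where 3 counts correspond to 0.0355 to 0.0557 CPM. Rpl39l had 0, 6, 0 and 0 counts in tumor and 9, 5, 1 and 0 in small intestine. Rpl3l, a muscle-type form of Rpl3, had 9, 3, 4 and 9 counts in tumor and 0 in every small intestine library, too few for a test. The other 4 were well expressed. Rpl7l1 rose by 0.60 ± 0.10 (SE; edgeR adjusted p = 0.000361) beside its parent Rpl7 at 0.74 ± 0.13 (SE; edgeR adjusted p = 0.000726). Rpl22l1 had 0.24 ± 0.10 (SE; edgeR adjusted p = 0.0461), a call that held in 2 of 8 omissions, those of tumor replicate 2 and small intestine replicate 3, and reached 0.115 over the others, beside Rpl22 at 0.05 (edgeR adjusted p = 0.777).

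Ratios of paralog to parent within a library need no scaling between libraries. The FPKM of Rpl22l1 was 50.5%, 43.1%, 46.6% and 42.6% of that of Rpl22 in tumor replicates 1 to 4 and 29.7%, 35.9%, 26.8% and 38% in small intestine replicates 1 to 4, so the groups did not overlap (45.7% ± 3.67 against 32.6% ± 5.24). The exact 2-sided permutation p was 0.0286, the smallest that 4 against 4 libraries allow, and 0.0714 after adjustment over the 5 pairs measured. By counts the difference was smaller, 0.17 on the log2 scale against 0.50 by FPKM, with an exact permutation p of 0.171. Rps4l, a transcribed processed pseudogene related to the X-linked Rps4x and no member, went the other way: its FPKM was 1.64%, 2.42%, 2.23% and 1.94% of that of Rps4x in tumor and 6.64%, 5.95%, 6.64% and 8.5% in small intestine (exact permutation p = 0.0286, adjusted 0.0714). Rpl36al stood at 56.6% ± 2.76 of Rpl36a in tumor and 70.8% ± 11.5 in small intestine (exact permutation p = 0.0571, adjusted 0.0952). The ratios of Rpl7l1 to Rpl7 (3.40% and 3.55%) and Rps27l to Rps27 (36.1% and 36.3%) had exact permutation p-values of 0.6 and 1. None of the 5 pairs passed after adjustment, while 2 did before it, and how reads shared by paralogs were counted is not given in the sources used here.

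**Figure D4:**
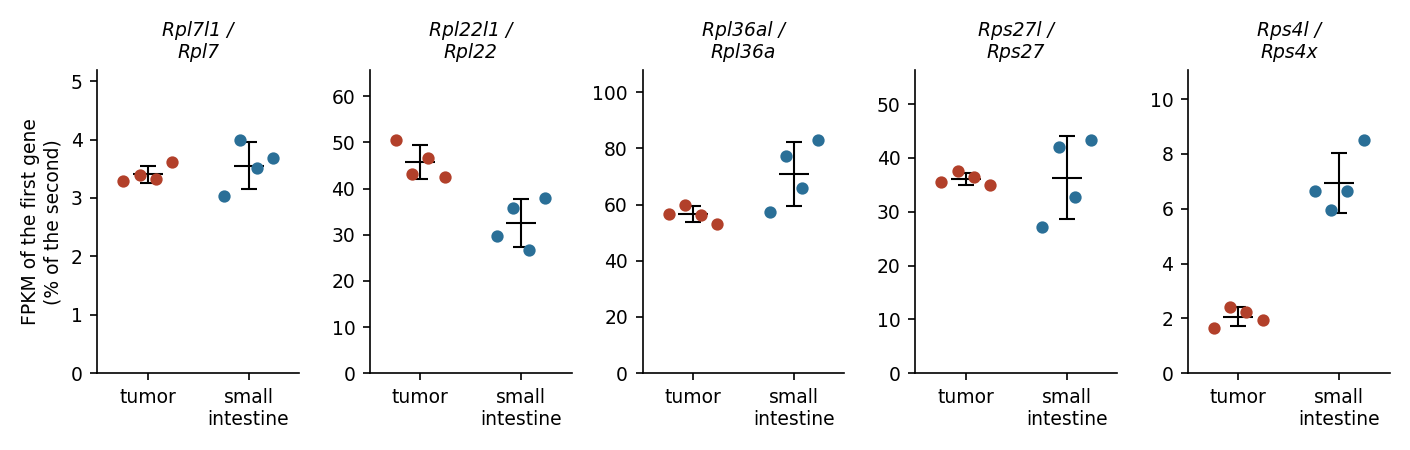
FPKM of the first gene as a percent of the FPKM of the second, for 5 pairs, in each tumor (red) and small intestine (blue) library, with means and SD over 4 libraries. Each panel has its own vertical axis from 0. The groups do not overlap for Rpl22l1 over Rpl22 and for Rps4l over Rps4x.

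Rpl24 stood apart between the count and the FPKM tables, and was singled out after its values were seen. This large subunit gene had 673, 673, 641 and 815 counts in tumor and 901, 521, 919 and 461 counts in small intestine, which is 8.48 ± 0.789 and 13.0 ± 5.37 CPM. Its FPKM was 509, 540, 552 and 586 in tumor and 249, 178, 302 and 171 in small intestine, a level like that of other members. The groups overlapped by counts and not by FPKM. The log2 fold change was -0.62 ± 0.27 under TMM (SE; edgeR adjusted p = 0.0646), 0.22 under library totals (edgeR adjusted p = 0.514) and 1.32 by FPKM (limma adjusted p = 0.000149). In the annotation 47.0% of its exon bases are shared with the gene Gm28037 on the same strand, and whether that overlap removed its reads from the count table was not tested. For the other 80 members the 2 tables differed by at most 0.39, in Rps15a, and over all 81 members the log2 fold changes of library totals and FPKM had an r of 0.91.

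**Figure D5:**
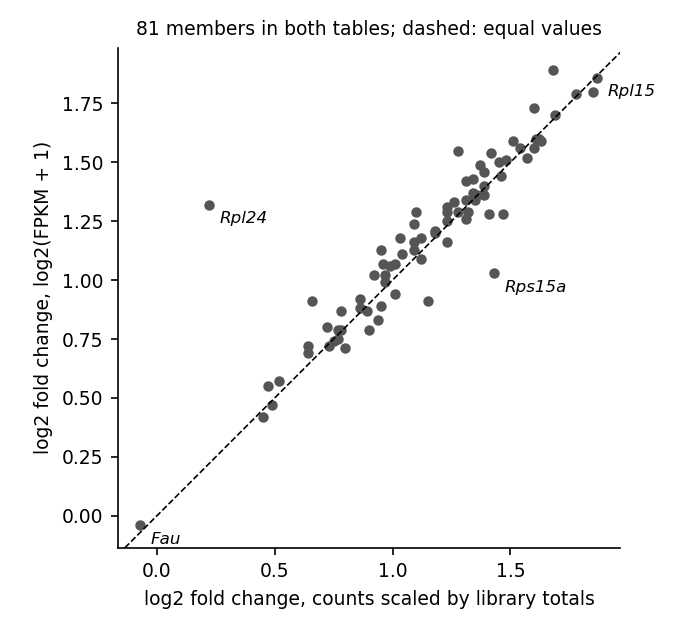
Log2 fold change of tumor over small intestine by counts scaled to library totals (horizontal axis) and by FPKM on the log2(FPKM + 1) scale (vertical axis) for 81 ribosomal protein genes. The dashed line marks equal values. Rpl24 lies 1.09 above the line, while the other genes lie within 0.39 of it.

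The ribosome of mitochondria, which shares no protein gene with the cytosolic one, served as a comparison family. Under TMM 19 of 76 tested mitochondrial ribosomal protein genes were higher and 22 lower, against 38.9% and 35.4% of all tested genes. The median over the 76 was 0.03. Under library totals 68 of the 76 were higher and 1 lower, against 62% and 17.6% of all tested genes, with a median of 0.89. Those with the largest changes under TMM were Mrps33 at 1.18, Mrpl14 at -1.15 and Mrpl24 at -1.05 (-0.28 and -0.18 for the latter 2 under library totals). Their summed CPM was 2301 to 2397 in tumor and 2265, 2334, 3114 and 2367 in small intestine replicates 1 to 4, so replicate 3 was high here too, and replicate 1 was not.

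Lists of factors that work on the ribosome are read against the shares of all tested genes given above, 38.9% higher and 35.4% lower under TMM and 62% and 17.6% under library totals. Of 9 elongation and release factors 5 were higher under TMM, with a median of 0.51, and all 9 under library totals, with a median of 1.38. The largest TMM values were those of Abce1, which splits ribosomes after termination, at 1.70, Eef1g at 0.92 and the release factor Etf1 at 0.66. Eef2 and Eef1a1 were not called, at -0.34 and 0.36. Of 29 initiation factors 19 were higher and 6 lower under TMM, with a median of 0.51, and 26 were higher and 1 lower under library totals, with a median of 1.38. Eif2s3x and Eif3a had 1.49 and 1.45, and Eif6, which keeps free large subunits from joining, had -1.44. Eif6 was lower under library totals too (-0.58, edgeR adjusted p = 0.00038). Whether these lists differ from the ribosomal proteins was not tested.

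Other messages known to carry a TOP motif were higher in 6 of 7 cases under TMM, with a median of 1.94, and in all 7 under library totals, with a median of 2.80. Nap1l1, Vim and Hnrnpa1 had 2.42, 2.24 and 1.96, and Tpt1 had -0.33, which turned to 0.54 under library totals. Vim also marks stromal cells, whose markers were higher in tumor, as given above. Of 9 genes that control TOP messages, 3 were higher and 4 lower under TMM, with a median of -0.24, and 7 were higher and 2 lower under library totals, with a median of 0.63. Eif4ebp3 and Rps6kb2 had the largest falls, -3.72 and -1.76, and both were lower under library totals too. Rps6kb1, the S6 kinase gene that was higher, had 0.63, and Larp1 had 0.30 (edgeR adjusted p = 0.0263).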

How the data were processed

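The authors deposited whole-number read counts per gene and, per the file headers, FPKM values for the same 8 libraries. The submitters' processing notes name FastQC, STAR, Cufflinks 2.2.1, HTSeq 0.6.0 and GRCm38. The sources used here do not give the annotation release, strand setting or rule for shared reads. Symbols matched by identifier for 42462 of 43629 genes in GENCODE M21. Members, lists and the naming rule (largest and smallest called changes, fixed roles, paralogs, reference genes) were chosen with earlier results of these data known. Promoter searches, 23 in all, were made and 4 kept after their shares were seen. Some genes are not reported here.

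Counts were tested with edgeR 4.0.16 in R 4.3.3 (TMM, filterByExpr, tissue as the only term), and again with library totals. FPKM was tested with limma 3.58.1 on log2(FPKM + 1) for genes averaging 1 FPKM or more, where low genes show too small a change. Alternatives were DESeq2 1.42.0, other filters and scalings, the replicate block and each library left out. Library pairs of a group differed beyond sampling noise (chi-square at least 38.9 times its degrees of freedom). Depth sets a floor of 3 counts, for counting error only. Counts of tumor against small intestine were simulated with 200 changed genes, equally many up and down, far fewer than were called here. On them edgeR, over 16722 genes, recovered 44.4% of 2-fold and 77.6% of 4-fold changes, with 4.76% false calls. Limma, run on simulated CPM and not on FPKM, recovered 55.6% and 85.2% over 13844 genes, with 7.69% false calls. These rates need not hold for the real comparison or for the FPKM test.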

Additional observations from a re-analysis of the deposited data

Results flagged for a closer look

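Of 74 groups of 4 libraries tested for a library far from the others, 2 were flagged, and chance flags about 1 group in 20. Rpl19 was at 415 CPM in tumor replicate 4, while the other tumor libraries lay at 398 to 400. Rpl36al was at 127 CPM in small intestine replicate 3, while the others lay at 83.3 to 88.4, and this is the library that was highest of its group in every tested member.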

How the results depend on the processing

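Against 34 higher and 3 lower members with TMM, library totals gave 79 and 0 (0 lower at an unadjusted p under 0.05 by edgeR), limma on FPKM 78 and 0 with either pseudocount and 77 and 0 without a filter, and the members' total as library size 12 and 9. The DESeq2 Wald test gave 35 and 5, no low-count filter 42 and 1. Among members sharing under 5% of exon bases 21 were higher, a number that is smaller because fewer members remain. Leaving out each library gave 24 to 54 higher and 2 to 6 lower under TMM, and 77 to 80 higher and 0 lower under library totals. Shares of all genes called are not given for the DESeq2, filter and exon-sharing counts. For the omissions they are given only for small intestine replicate 3 under TMM. The median of 0.32 became 1.18 with library totals and 1.21, 1.22 and 1.20 with the 3 FPKM fits, and ran from 0.21 to 0.46 over the omissions. The share of counts was 2.13 times as high in tumor, 1.95 to 2.41 times over the omissions and 17.6 times as a share of summed FPKM. In small intestine 9 immunoglobulin J segments made up 64.9% to 94.8% of the summed FPKM, and they were listed at 0 in each tumor library. The share by counts is read beside all tested genes, whose median log2 fold change under library totals was 0.93.

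The replicate numbers did not pair the libraries: same-numbered deviations had correlations of -0.082, -0.127, 0.007 and -0.203, and no library correlated best with its own number. With the replicate block 32 members were higher and 3 lower, and the share of all genes called there is not given.

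By counts the log2 difference of Rpl22l1 to Rpl22 was 0.17. Over the omissions, Rpl7l1 to Rpl7 ran from -0.13 to 0.00 and Rps27l to Rps27 from -0.11 to 0.11. Signs turned for Rps27 (0.47 with library totals, 0.55, 0.56 and 0.55 by FPKM), Rps27l (0.52, 0.57, 0.57 and 0.57), Rplp1 (0.78, 0.87, 0.87 and 0.87, and 0.02 without a filter), Rpl13a (0.80, 0.71, 0.71 and 0.71, and 0.04 without a filter) and Rpl24 (0.22, 1.32, 1.32 and 1.32). With the members' total they turned for Rplp2 (-0.13), Rpl32 (-0.18), Rpl22l1 (-0.04), Rpl36al (-0.14), Rpl22 (-0.19), Rps4x (-0.13) and Rpl10 (-0.13). Without 1 library they turned for Rplp1 (from -0.17 to 0.10), Rplp2 (from -0.03 to 0.32), Rpl13a (from -0.19 to 0.15), Rpl32 (from -0.08 to 0.23) and Rpl22 (from -0.04 to 0.19). Apart from the scalings the cause was not tested. Of the remaining values for single genes, 459 kept direction and call, 48 lost a call and 45 gained one.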

Other observations

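Counts assigned to the 259 ribosomal protein pseudogenes of the table came to 0.27% to 0.278% of member counts in tumor and to 0.467% to 0.538% in small intestine, so the 2 groups did not overlap. The member counts were themselves a larger share of all counts in tumor (mean 5.16% against 2.43%). These percents thus do not show fewer pseudogene reads there. Rps4l, which is among these pseudogenes, had 1084 to 1354 counts in tumor and 1788 to 2752 in small intestine. Reads of a member and of a near-identical pseudogene can be confused, and how such reads were counted is not given in the sources used here.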
